A study of Mus musculus with 12 samples.

Results

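The Janus kinases and STAT factors relay cytokine signals from the cell surface to the nucleus. Of 10 listed genes of this family, 9 had a probe set that the platform annotation ties to that symbol alone, Jak1, Jak2, Tyk2, Stat2, Stat3, Stat4, Stat5a, Stat5b and Stat6, among 22180 genes tested. Each of the 9 had only 1 such probe set. Jak3 shares its probe set with Insl3 and was not counted. The shared probe set read 7.78 to 8.06 on a log2 scale in LPS-treated knockout cells, 7.99 to 8.41 in untreated knockout cells, 8.05 to 8.21 in LPS-treated wildtype cells and 8.02 to 8.08 in untreated wildtype cells, and these ranges cannot be assigned to Jak3.

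The cells were bone marrow-derived dendritic cells (BMDC), antigen-presenting cells grown for 7 days with the growth factor GM-CSF at 20 ng/ml from marrow of mice aged 8 weeks. All animals had a C57BL/6 background and were labelled male. Arc/Arg3.1 -/- (knockout, KO) cells and Arc/Arg3.1 +/+ (wildtype, WT) cells were each exposed for 30 min to LPS, a bacterial cell wall component sensed by Toll-like receptor 4, at 100 ng/ml, or to plain medium, and RNA was taken after 3 washes and a further 1 h in medium. There were 4 groups of 3 Affymetrix arrays: LPS-treated knockout, untreated knockout, LPS-treated wildtype and untreated wildtype. The sample titles use the term biological for each replicate, but whether every culture had its own animal is not stated. Both knockout groups and the LPS-treated wildtype group mix arrays with and without Y-linked signal, as given below. If the array labels are right, each of these groups drew on more than a single animal. The untreated wildtype arrays all lacked that signal, which does not show whether they share an animal. A p-value here speaks to the spread among these cultures only, which may be partly technical.

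A cytokine receptor that uses Janus kinases has no kinase of its own. Janus kinases bound to its inner part phosphorylate each other and the receptor, STAT proteins dock there, are phosphorylated in turn, pair up and enter the nucleus as transcription factors. In dendritic cells this route carries GM-CSF (Jak2 and the Stat5 pair), type I interferon (Jak1, Tyk2 and Stat2), interleukins 6 and 10 (Stat3), interleukins 12 and 23 (Stat4) and interleukin 4 (Stat6). Arrays measure the transcripts of these proteins and not their phosphorylation.

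Facts of the arrays that touch the values below are given here once. Arc read 7.68 to 8.05 on the 6 knockout arrays and 9.21 to 9.62 on the 6 wildtype arrays, and where its probes lie relative to the deletion was not tested. Pairs of untreated wildtype arrays had an SD of 0.105 to 0.108 over 6440 bright genes, against 0.193 to 0.438 for the 9 other pairs of replicates, and their mean was counted as 1 sample. On 4 arrays, replicates 2 and 3 of both LPS groups, the median of 73 small nucleolar RNA genes was 9.55 to 9.85, against 10.44 to 11.04 on the other 8. On 3 arrays, replicate 2 of both knockout groups and LPS-treated wildtype replicate 1, Y-linked genes averaged 8.83 to 9.24, against 3.98 to 4.58 on the other 9, which goes against the label of sex. Dendritic cell markers were high in all 4 groups: the summed linear signal of the 10 measured was 44400 to 47100 in LPS-treated knockout, 38900 to 41500 in untreated knockout, 43300 to 45900 in LPS-treated wildtype and 38800 to 39600 in untreated wildtype cells.

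Stat5a and Stat5b are neighbouring genes on chromosome 11 that encode closely related proteins, and only Stat5a met the threshold after LPS in this set of genes. Windows around a start site of each are therefore printed, from the RefSeq annotation on GRCm38.p6, each from 250 bases before to 50 bases after the start, 5′ to 3′ on the gene's own strand. Each gene has 2 windows, and the pairing with the highest alignment score is printed. Capitals mark its best local alignment: 104 aligned columns, of which 83 (79.8%) were identical and 4 were gaps.

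Stat5a, chr11:100860234-100860533, plus strand: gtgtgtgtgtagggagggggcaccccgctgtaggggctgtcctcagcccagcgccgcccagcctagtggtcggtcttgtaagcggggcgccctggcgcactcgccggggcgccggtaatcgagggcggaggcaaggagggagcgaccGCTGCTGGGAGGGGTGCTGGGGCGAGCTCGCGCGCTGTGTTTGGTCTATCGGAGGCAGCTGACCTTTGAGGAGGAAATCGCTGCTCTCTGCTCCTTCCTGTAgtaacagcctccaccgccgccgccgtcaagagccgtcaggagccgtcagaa

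Stat5b, chr11:100822521-100822820, minus strand: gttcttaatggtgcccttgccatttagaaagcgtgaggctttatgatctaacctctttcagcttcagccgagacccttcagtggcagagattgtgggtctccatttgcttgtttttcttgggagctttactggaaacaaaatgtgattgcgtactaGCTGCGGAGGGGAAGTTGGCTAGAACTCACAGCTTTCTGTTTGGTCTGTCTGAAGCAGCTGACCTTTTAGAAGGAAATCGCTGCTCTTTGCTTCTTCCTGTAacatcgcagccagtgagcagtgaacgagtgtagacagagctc

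The aligned stretch runs from base 148 to 249 of the Stat5a window and from base 157 to 258 of the Stat5b window. The other pairings of windows aligned at 62.1% to 67.3% identity, with lower scores. The other Stat5b window, chr11:100850532-100850831, lies upstream on the gene's strand and aligned with the Stat5a windows at 64.9% and 62.1%. The likeness printed above thus holds for 1 pairing of start sites. Since the probe sequences were not used here, whether any probe can bind transcripts of both genes was not tested.

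Stat5a rose after LPS in both genotypes. It is known as a carrier of GM-CSF signals. Stat5a read 9.50, 9.88 and 9.84 in LPS-treated knockout cells, against 8.92, 8.75 and 9.01 in untreated knockout cells. In wildtype cells it read 9.51, 9.64 and 9.74 after LPS, against 8.58, 8.88 and 8.65 without. Every LPS array lay above every untreated array in both genotypes, and the lowest LPS value in each genotype was that of replicate 1. The means were 9.74 ± 0.213 and 8.89 ± 0.133 in knockout cells with and without LPS (SD, n = 3 each), and 9.63 ± 0.118 in LPS-treated wildtype cells (SD, n = 3) against 8.71 for the counted untreated sample. The rise was 1.80-fold in knockout cells (log2 difference 0.85, SE 0.132, 95% interval 0.55 to 1.14, adjusted p = 0.00391 by limma). In wildtype cells it was 1.90-fold (0.93, SE 0.187, 0.51 to 1.34, adjusted p = 0.038 by limma).

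Stat5a was the only gene of the 9 to pass in either LPS comparison, and none fell past the threshold. Over all genes tested, 2.98% rose and 2.93% fell in knockout cells, and 1.34% rose and 0.234% fell in wildtype cells. With 12 arrays as 12 samples the adjusted p of Stat5a was 0.00124 in knockout and 0.000567 in wildtype cells, where 9.11% and 8.64% of all genes passed. Without the 4 arrays of low small RNA signal, each LPS group keeps 1 array and the spread comes from the 3 untreated knockout arrays alone, with 2 residual degrees of freedom. Neither call was kept in it (log2 0.60, SE 0.162, adjusted p = 0.101 in knockout; 0.80, SE 0.199, adjusted p = 0.207 in wildtype). The wildtype call was also lost without LPS-treated wildtype replicate 1, 2 or 3 (adjusted p = 0.0517, 0.0929 and 0.115), without untreated knockout replicate 1 or 3 (0.064 and 0.0619) and without LPS-treated knockout replicate 3 (0.0646), while its log2 difference stayed between 0.87 and 0.99.

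**Figure D1:**
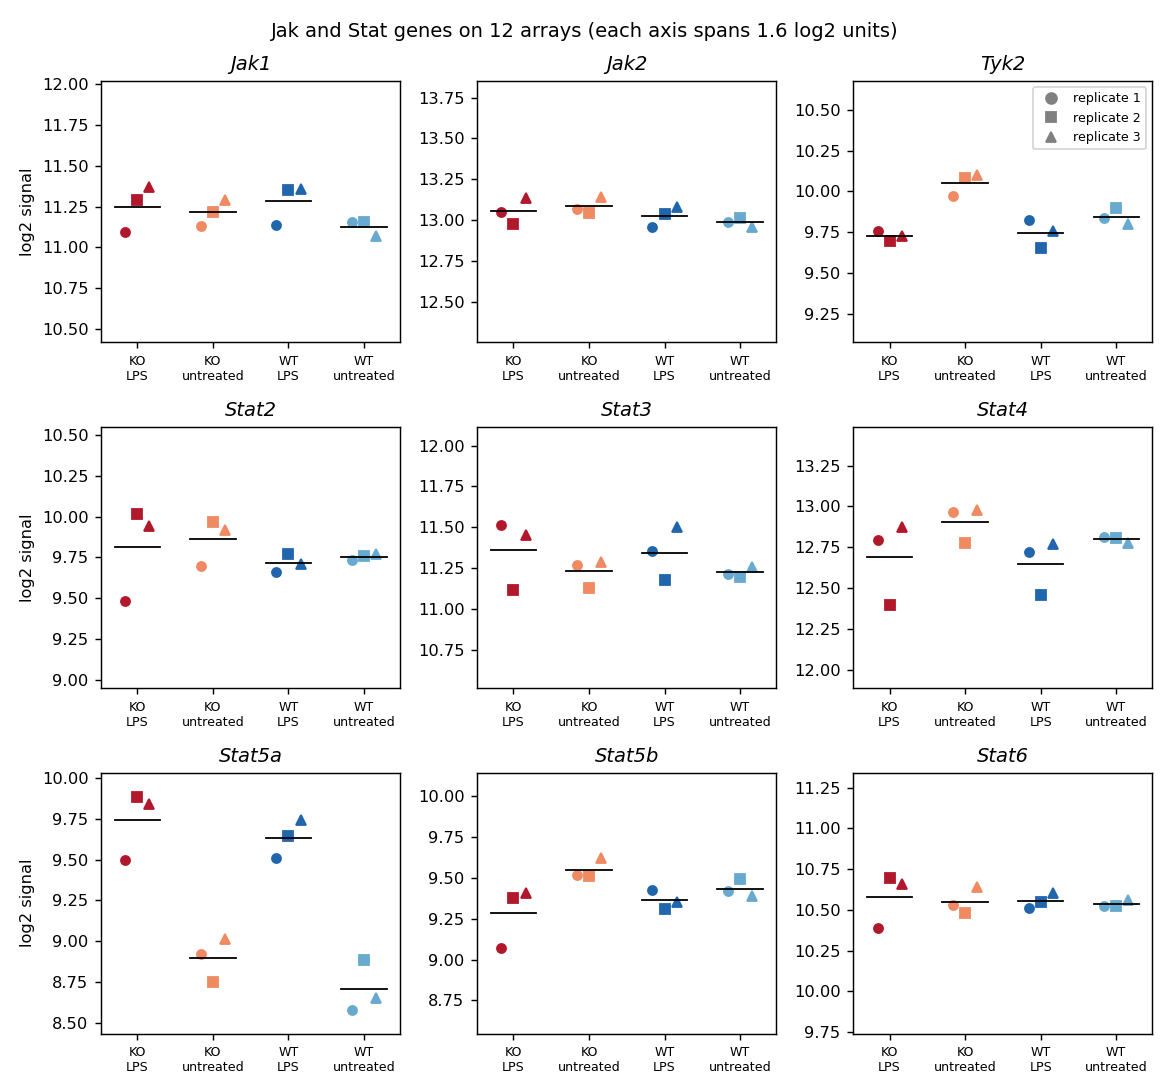
Log2 signal (vertical axes, each 1.6 units high) of 9 Jak and Stat genes on 12 arrays, by group, with the marker shape for the replicate number and a line at the mean of the 3 arrays. Stat5a reads 9.50 to 9.88 on the 6 LPS arrays and 8.58 to 9.01 on the 6 untreated ones, and no other gene shows a gap of this size.

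Markers of dendritic cells, of neutrophils and of monocytes and macrophages moved with LPS in the same samples. Of 10 dendritic cell markers measured, 3 rose in knockout and 2 in wildtype cells and 0 fell, against 2.98% and 1.34% of all genes rising. Their summed signal, given above, was higher on every LPS array than on every untreated array of the same genotype. Of 4 B cell, 6 mast cell and basophil and 11 T and NK cell markers measured, 0 passed in either genotype. The summed linear signal of 10 neutrophil markers was 2240 to 3220 in LPS-treated against 5180 to 7560 in untreated knockout cells, and 2060 to 3870 in LPS-treated against 7030 to 7260 in untreated wildtype cells. That of 8 monocyte and macrophage markers was 8290 to 13000 against 19400 to 20300 in knockout and 11500 to 13900 against 19900 to 21000 in wildtype cells, LPS first. Of the neutrophil markers 5 fell in knockout and 1 in wildtype cells, and of the monocyte and macrophage markers 3 and 1. Over all genes 2.93% fell in knockout and 0.234% in wildtype cells. In bulk RNA, fewer cells of a type and less RNA per cell cannot be told apart, and the part of these markers in the rise of Stat5a was not tested. Neutrophil markers had a list median of -1.01 in knockout and -1.22 in wildtype cells, and monocyte and macrophage markers -0.74 and -0.63.

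Stat5b, the paralog, did not pass. It read 9.07, 9.38 and 9.41 in LPS-treated knockout cells, against 9.52, 9.51 and 9.62 in untreated knockout cells. In wildtype cells it read 9.43, 9.31 and 9.35 after LPS, against 9.42, 9.50 and 9.39 without. All 3 LPS arrays lay below all 3 untreated arrays in knockout cells, and the arrays overlapped in wildtype cells. The log2 difference was -0.26 in knockout cells (SE 0.114, interval -0.52 to -0.01, adjusted p = 0.223 by limma) and -0.07 in wildtype cells (SE 0.161, -0.43 to 0.29, adjusted p = 0.983).

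The response of the pair was compared within each sample, a contrast chosen after Stat5a was seen to pass and Stat5b not. Stat5a minus Stat5b was 0.43, 0.51 and 0.44 in LPS-treated knockout cells, against -0.59, -0.76 and -0.61 in untreated knockout cells. It was 0.08, 0.33 and 0.39 in LPS-treated wildtype cells, against -0.84, -0.61 and -0.74 in untreated wildtype cells. The signals of different probe sets have no common scale, so these signs do not order the 2 genes, and only the change between groups is read. LPS moved the difference by 1.11 in knockout and 1.00 in wildtype cells (mean 1.05), with a two-sided exact permutation p of 0.0125 over both genotypes, the smallest that 80 regroupings within genotype allow. Within knockout cells alone the exact p was 0.1 and within wildtype cells 0.25, each the smallest possible. With knockout arrays regrouped only within pairs of the same replicate number, 32 regroupings over both genotypes are left. The exact p was then 0.0312, again the smallest possible, and within knockout cells alone 0.25. The contrast was chosen from these same values, so these p-values lend no support to a difference in response between the 2 genes. The genotypes were regrouped separately, although same-numbered arrays also correlated between LPS-treated wildtype and knockout cells.

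On chromosome 11 the order of protein-coding genes in the RefSeq table is Hcrt, Ghdc, Stat5b, Stat5a, Stat3, Cavin1, Atp6v0a1. Of the 6 genes around Stat5a, 0 passed in either genotype. Their log2 differences after LPS ran from -0.26 (Stat5b) to 0.31 (Atp6v0a1, a proton pump subunit) in knockout cells and from -0.29 (Hcrt, a neuropeptide gene) to 0.38 (Atp6v0a1) in wildtype cells. Up to 3 genes on each side of the other members were also read. In knockout cells Keap1 (near Tyk2, -0.54), Cnpy2 (near Stat2, -0.72), Ak4 and Leprot (near Jak1, -0.50 and -0.45) fell past the threshold. Nab1 (near Stat4, 0.46) and Il23a (near Stat2, given below) rose past it. In wildtype cells only Il23a passed, apart from Stat5a itself. The shares of all genes past the threshold are given above.

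The genes whose signal followed that of Stat5a most closely over the 10 counted samples were Top1, Nup98 and Slc2a6, with Pearson correlations of 0.996, 0.993 and 0.992. The samples share the contrast of LPS with medium, and 583 of 11089 genes of above-median signal correlated with Stat5a above 0.9. Top1, a DNA topoisomerase, had a log2 difference after LPS of 0.68 (SE 0.116) in knockout and 0.77 (SE 0.164) in wildtype cells. Nup98, a nuclear pore gene, had 0.39 (SE 0.103) and 0.43 (SE 0.145), and Slc2a6, of the glucose transporter family, 1.47 (SE 0.205) and 1.65 (SE 0.29).

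Motifs were searched on both strands in the windows of the 9 genes, 12 windows in all. Shares are given over all 27025 genes with a window, a gene counting if any of its windows matched. The STAT motif TTCNNNGAA, called GAS, was in 0 of the 9 genes' windows, against 9.55% of genes (8.30% of all 32851 windows). TTCCNGGAA, a form of GAS preferred by STAT5 that always overlaps it, was also in 0, against 1.35% of genes. TGANTCA, the AP-1 motif, was in 0, against 8.97% of genes. The kB motif, bound by NF-kB, matched only in the Stat5a window printed above (GGGGCACCCC, bases 17 to 26), against 9.55% of genes. TTTCNNTTT, a core of the interferon-stimulated response element bound by STAT2 complexes, matched in windows of Stat2, Stat4 and Stat5b, against 12.1% of genes. The Stat2 match, TTTCAGTTT, begins at base 29 of its window. These matches describe letters in short windows and no binding was measured.

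The Janus kinases did not pass in any of the 6 comparisons. Jak2, which serves the receptors of GM-CSF and interferon gamma, had the narrowest range of the 9 genes, 12.96 to 13.14 over all 12 arrays. Its log2 difference after LPS was -0.03 in knockout (SE 0.0968, interval -0.24 to 0.19) and 0.04 in wildtype cells (SE 0.137, -0.26 to 0.34), so changes of 1 log2 unit lie outside both intervals. Jak1, which serves interferon receptors and those that use gp130, read 11.09 to 11.37 in LPS-treated and 11.13 to 11.29 in untreated knockout cells, and 11.14 to 11.36 in LPS-treated and 11.07 to 11.16 in untreated wildtype cells. Its differences after LPS were 0.03 (SE 0.115, -0.22 to 0.29) and 0.16 (SE 0.162, -0.20 to 0.52), with adjusted p = 0.908 and 0.92 by limma.

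Tyk2, which serves the receptors of type I interferon and of interleukins 12 and 23, came closest to the threshold among the genes that did not pass. It read 9.76, 9.69 and 9.73 in LPS-treated knockout cells, against 9.97, 10.08 and 10.10 in untreated knockout cells. In wildtype cells it read 9.83, 9.65 and 9.76 after LPS, against 9.84, 9.90 and 9.80 without. The knockout groups did not overlap and the wildtype groups did. The log2 difference in knockout cells was -0.33 (SE 0.097, interval -0.54 to -0.11, adjusted p = 0.0797 by limma). With 12 arrays as 12 samples adjusted p = 0.0345 by limma. Tyk2 also passed with the 10 counted samples when only genes above the median mean signal were tested. The call thus depends on how the untreated wildtype arrays are counted and on which genes are tested. Deviations of same-numbered arrays correlated between the knockout groups. With the replicate number as a block over the 9 arrays outside the untreated wildtype group, adjusted p = 0.0684 by limma for Tyk2. In that fit 10.4% of all genes passed. In wildtype cells the difference was -0.10 (SE 0.137, -0.40 to 0.20, adjusted p = 0.961), and the test of whether the responses differ gave -0.23 (SE 0.168, -0.60 to 0.14, adjusted p = 0.948).

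Counting only whether arrays overlap, 3 of the 9 genes were separated by LPS in knockout cells (Stat5a above, Tyk2 and Stat5b below) and 2 in wildtype cells (Stat5a above, Stat4 below). Over all genes 25.1% and 30.2% were separated in these comparisons.

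**Figure D2:**
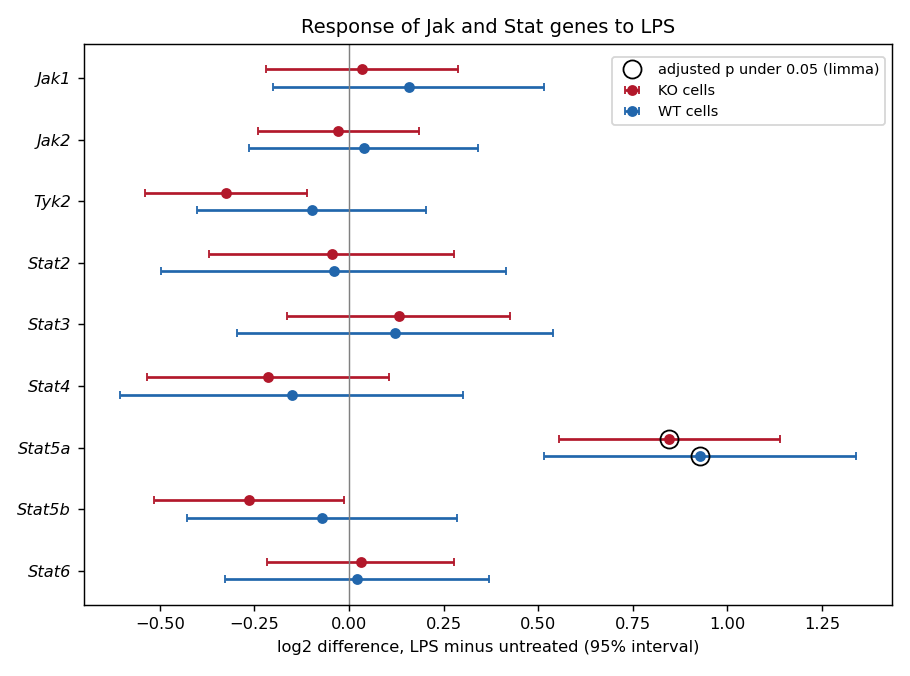
Log2 difference, LPS minus untreated (horizontal axis), of each gene in knockout and wildtype cells, with 95% intervals from limma and open circles where the adjusted p is under 0.05. Stat5a alone is circled, at 0.85 in knockout and 0.93 in wildtype cells, and Tyk2 in knockout cells lies at -0.33.

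The other STAT genes did not pass after LPS. Stat3, the factor of interleukins 6 and 10, read 11.52, 11.11 and 11.45 in LPS-treated against 11.27, 11.13 and 11.29 in untreated knockout cells. It read 11.36, 11.18 and 11.50 in LPS-treated against 11.21, 11.20 and 11.26 in untreated wildtype cells. The groups overlapped in both genotypes, and the differences were 0.13 (SE 0.134, interval -0.16 to 0.43) and 0.12 (SE 0.189, -0.30 to 0.54), with adjusted p = 0.643 and 0.972 by limma.

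Stat4, the factor of interleukins 12 and 23, read 12.79, 12.40 and 12.88 in LPS-treated against 12.96, 12.77 and 12.98 in untreated knockout cells. It read 12.72, 12.46 and 12.77 in LPS-treated against 12.81, 12.81 and 12.78 in untreated wildtype cells. The wildtype groups did not overlap, yet the difference was small beside its error: -0.15 (SE 0.205, -0.60 to 0.30, adjusted p = 0.959) in wildtype and -0.21 (SE 0.145, -0.53 to 0.10, adjusted p = 0.452) in knockout cells. Stat4 is best known from T and NK cells. Of 11 T and NK cell markers measured, Cd3e, Cd3g, Klrb1c and Gzmb lay in all 4 groups below the median signal of unannotated probe sets (5.89 to 6.10 over the arrays), Eomes did in 3 groups, and the other 6 did in none. The list's summed linear signal was 824 to 988 in LPS-treated and 801 to 947 in untreated knockout cells, and 870 to 951 in LPS-treated and 966 to 1010 in untreated wildtype cells.

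Stat2, which joins Irf9 in the interferon-activated complex, ranged from 9.48 to 10.02 in LPS-treated and from 9.69 to 9.97 in untreated knockout cells. In wildtype cells it ranged from 9.66 to 9.77 after LPS and from 9.74 to 9.77 without. Its differences were -0.05 (SE 0.146, -0.37 to 0.28) in knockout and -0.04 (SE 0.207, -0.50 to 0.42) in wildtype cells. The next protein-coding gene on chromosome 10, Il23a, which encodes a subunit of interleukin 23, rose 19.8-fold in knockout and 16.8-fold in wildtype cells (adjusted p = 3.38e-08 and 2.38e-06 by limma). Its untreated signals of 6.39 and 6.33 are near the median signal of unannotated probe sets, so these are ratios of signals. Stat6, the factor of interleukins 4 and 13, ranged from 10.39 to 10.70 in LPS-treated and 10.48 to 10.64 in untreated knockout cells, and from 10.51 to 10.61 and 10.52 to 10.56 in wildtype cells. Its differences were 0.03 (SE 0.112, -0.22 to 0.28) and 0.02 (SE 0.158, -0.33 to 0.37), with adjusted p = 0.917 and 0.995.

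Over the 9 genes the median log2 difference after LPS was -0.03 in knockout and 0.02 in wildtype cells, against -0.004 and -0.005 over all genes tested. The 8 genes that did not pass had intervals between -0.54 and 0.43 in knockout cells and between -0.60 and 0.54 in wildtype cells.

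Within groups, some members deviated on the same arrays and others did not. Over the 9 arrays outside the untreated wildtype group, correlations of these deviations ran from -0.619 (Stat2 and Stat3) to 0.956 (Stat5a and Stat6). Stat3 and Stat4 were next to the top at 0.954, while Jak2 and Tyk2 had -0.00937 and Stat2 and Stat4 -0.491. The pairs plotted below are the 2 highest and do not stand for the whole family. Replicate 2 had the lowest Stat3 and the lowest Stat4 in the LPS-treated knockout, untreated knockout and LPS-treated wildtype groups. In both LPS groups replicate 1 had the lowest Jak1, Stat2, Stat5a and Stat6. Among the untreated knockout arrays, all with high small RNA signal, replicate 1 also had the lowest Jak1 and Stat2, and replicate 2 the lowest Stat5a and Stat6. Replicate 1 is the LPS array with high small RNA signal in each genotype, and Y-linked signal was present on replicate 2 of both knockout groups but not on LPS-treated wildtype replicate 2. The part of either in these deviations was not tested. Within-group SDs ran from 0.0656 for Jak2 to 0.191 for Stat2.

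**Figure D3:**
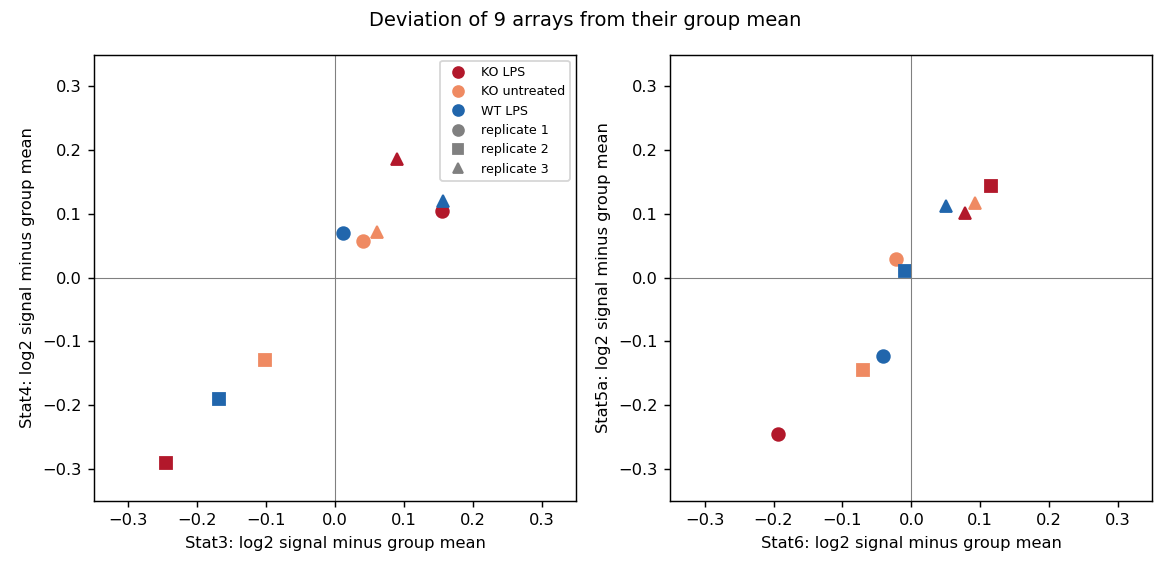
Log2 signal minus the group mean for Stat3 (horizontal) and Stat4 (vertical) on the left, and for Stat6 (horizontal) and Stat5a (vertical) on the right, on 9 arrays outside the untreated wildtype group, with colours for groups and shapes for replicate numbers. The 3 squares, replicate 2, are lowest for both Stat3 and Stat4, and LPS-treated knockout replicate 1 is lowest for both Stat5a and Stat6. These pairs had the highest correlations of such deviations among the Jak and Stat genes.

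The comparison of genotypes asks whether loss of Arc alters these transcripts. In untreated cells, 0 of the 9 genes passed, against 0.00451% of all genes, and after LPS 0 passed, against 0.00902%. Over both treatments 0 passed, against 0.0135%. By limma at an unadjusted p under 0.05, the count of the 9 was likewise 0 in each of these comparisons, against 897 of 22180 genes in untreated cells, 877 after LPS and 732 over both treatments. With 12 arrays as 12 samples 0 of the 9 passed, against 97, 2 and 6 of all genes in the same order.

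After LPS, knockout minus wildtype ran from -0.08 (Stat5b, SE 0.114, interval -0.33 to 0.17) to 0.11 (Stat5a, SE 0.132, -0.18 to 0.40). The groups of all 9 genes overlapped, while 7.78% of all genes were separated. In untreated cells the differences ran from 0.01 (Stat3, SE 0.189) to 0.21 (Tyk2, SE 0.137, -0.10 to 0.51), and the untreated knockout arrays lay above the untreated wildtype arrays for Jak2, Tyk2 and Stat5b, against 29.3% of all genes separated. Over both treatments Stat5a had the largest difference of the 9, 0.15 (SE 0.114, interval -0.10 to 0.40). The median difference of the 9 genes was 0.105 in untreated cells, against 0.0242 over all genes, and 0.0242 after LPS, against -0.0244 over all genes. Differences of up to 0.60 thus remain within the intervals in untreated cells and of up to 0.42 after LPS.

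The response to LPS was also compared between genotypes. For Stat5a the response of knockout minus that of wildtype cells was -0.08 (SE 0.229, interval -0.58 to 0.43, adjusted p = 0.971 by limma). Of the 9 genes 0 passed and 0 had an unadjusted p under 0.05, and over all genes 0% passed by limma, with 982 genes at an unadjusted p under 0.05 and 55 past the threshold with 12 arrays as 12 samples. The intervals of the 9 genes reached from -0.63 to 0.55.

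**Figure D4:**
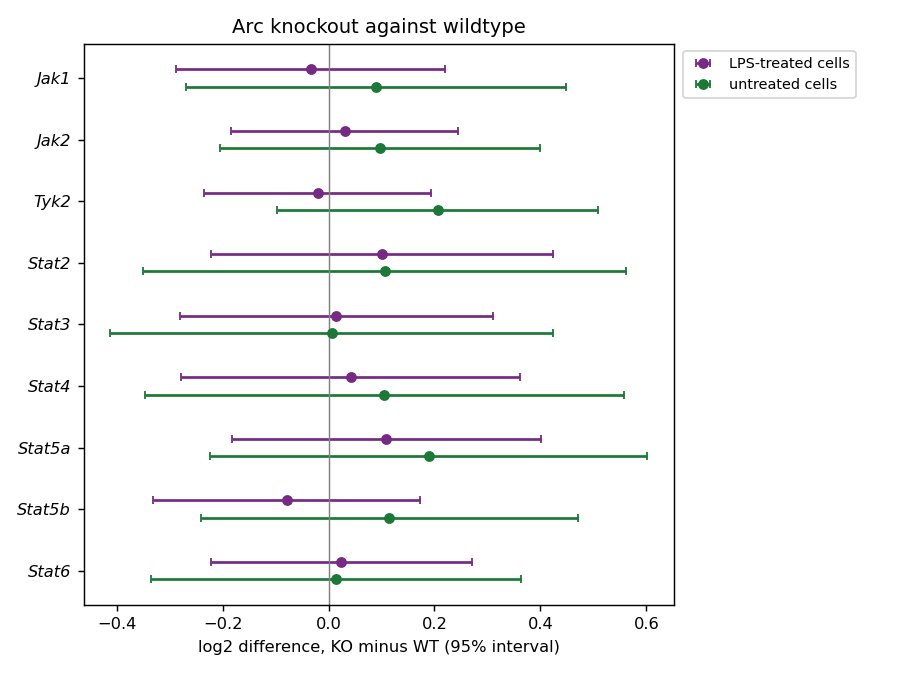
Log2 difference, knockout minus wildtype (horizontal axis), of each gene in LPS-treated and untreated cells, with 95% intervals from limma. All intervals include 0, and the differences lie between -0.08 and 0.21.

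The genes around these proteins in the pathway were read from 4 lists. Of 26 ligands of receptors that use Janus kinases, 10 rose and 1 fell in knockout cells, and 7 rose and 0 fell in wildtype cells, with list medians of 0.24 and 0.26. Beside these and the following counts stand the shares of all genes given above, 2.98% rising and 2.93% falling in knockout and 1.34% and 0.234% in wildtype cells. The lists were chosen with earlier results of these data known, so a count above these shares is no test of the pathway. Il23a had the highest ratio of signals, given above. Also named by size were Il6 (9.17-fold in knockout and 8.36-fold in wildtype cells, with log2 SEs of 0.22 and 0.311) and Il12b, a subunit of interleukins 12 and 23 (5.01-fold and 4.03-fold, with log2 SEs of 0.231 and 0.326). Ifnb1, the beta interferon, passed in both genotypes (adjusted p = 8.77e-06 and 0.000458 by limma), with signals of 7.52 with LPS and 5.08 without in knockout cells and 7.47 and 5.25 in wildtype cells. The untreated signals are under the median signal of unannotated probe sets, so no size of its change is given. The ligand that fell was Il15, by 0.85 on the log2 scale (SE 0.184, adjusted p = 0.0226 by limma), named after its value was seen.

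Of 33 receptor genes measured, 1 rose and 0 fell in each genotype, a share near that of all genes, with list medians of -0.002 in knockout and 0.01 in wildtype cells. This was Il21r, a receptor that pairs with the common gamma chain (log2 0.81, SE 0.127, adjusted p = 0.00396 in knockout; 1.03, SE 0.179, adjusted p = 0.0177 in wildtype, by limma). The chains of the GM-CSF receptor, chosen after their values were seen, had differences of -0.01 and 0.08 (Csf2ra), -0.002 and -0.01 (Csf2rb) and 0.05 and 0.13 (Csf2rb2) in knockout and wildtype cells, and none passed.

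Of 20 inhibitors, 1 rose and 1 fell in knockout cells and 1 rose in wildtype cells, with list medians of -0.02 and 0.27. Socs3, which blocks Janus kinases at gp130 receptors, rose 3.40-fold in knockout and 2.80-fold in wildtype cells (log2 SEs of 0.174 and 0.246), and Socs6 fell by 0.47 on the log2 scale in knockout cells (SE 0.113, adjusted p = 0.0366 by limma). Of 26 STAT partners and STAT-driven genes, 10 rose and 2 fell in knockout cells and 8 rose in wildtype cells, with list medians of 0.20 and 0.32. They were led by the interferon-induced genes Ifit1 (2.88 and 2.48 on the log2 scale, SE 0.155 and 0.22) and Isg15 (2.80 and 2.97, SE 0.149 and 0.21) and by the survival gene Bcl2l1 (2.05 and 2.08, SE 0.135 and 0.191). Next came Fos in knockout cells (1.73, SE 0.178) and Junb in wildtype cells (1.22, SE 0.223), both AP-1 genes. The genes that fell in knockout cells, named after their values were seen, were Chil3 (by 1.48, SE 0.21) and Arg1 (by 0.95, SE 0.218), both known targets of Stat6 in mouse macrophages. Retnla, on the same list, did not fall past the threshold. Chil3 is also one of the 8 monocyte and macrophage markers whose summed signal is given above. Whether Stat6 has a part in these falls was not tested. In the comparisons of genotypes and of their responses, 0 genes of these 4 lists passed.

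**Figure D5:**
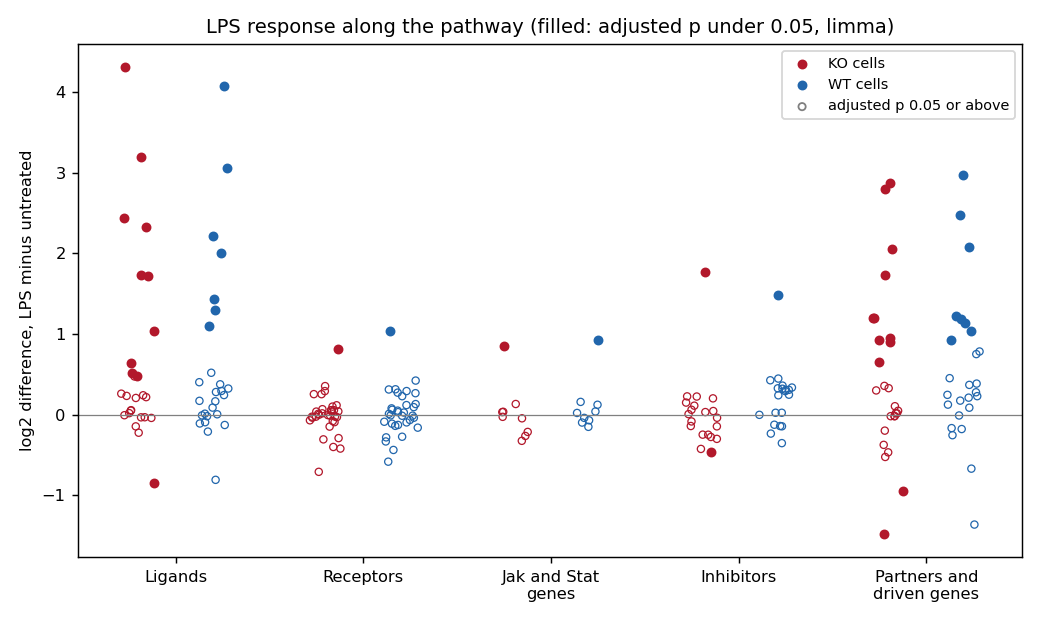
Log2 difference, LPS minus untreated (vertical axis), of the genes of each list and of the 9 Jak and Stat genes, in knockout and wildtype cells, with filled points where the adjusted p is under 0.05 by limma. Ligands reach 4.31 and partners and driven genes 2.97, while the 9 Jak and Stat genes lie between -0.33 and 0.93.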

How the data were processed

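Each probe set has a deposited log2 signal on each of the 12 arrays. No step of the authors' background correction or scaling is described in these sources, and limma is the only tool named, per the submitters' processing notes. Of 34390 probe sets, 23521 carried 1 gene symbol, 1814 several and 9055 none. Where probe sets shared a gene, the row with the highest mean over the 12 arrays was used, giving 22180 genes tested. The members and lists were chosen with earlier results of these data known.

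Comparisons were fitted in R 4.3.3 by limma 3.58.1 (a mean for each group in lmFit, then eBayes, two-sided, Benjamini-Hochberg over all genes, threshold 0.05). The untreated wildtype arrays, alike beyond any other replicates, were averaged to 1 counted sample, leaving 10 samples and 6 residual degrees of freedom; its spread is assumed to be that of the other groups. The method was tested on simulated data. The number of arrays limits the precision.

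Named genes were all members and, per list, up to 4 genes past the threshold with the largest difference in each LPS comparison; the planned naming of 2 genes per list in comparisons without any was left out. Residuals of arrays with the same number correlated at 0.196 to 0.381 between the knockout groups and 0.228 to 0.358 between the LPS groups. Between untreated knockout and LPS-treated wildtype they correlated at 0.145 to 0.196. All were above 0.1, so numbers were taken to pair these samples, as read from the data. The low small RNA signal and the Y-linked signal partly follow the replicate numbers, and their part in these correlations was not tested. Correlations with untreated wildtype arrays ran from -0.053 to 0.113. Promoter windows were aligned with Biopython 1.88. Alternatives were 12 samples, replicate blocks, scaling, a filter, variance models, array terms and arrays left out.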

Additional observations from a re-analysis of the deposited data

How the results depend on the processing

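Results were recomputed under 24 alternatives, 22 of them planned; the other 2, leaving out the low small RNA arrays and leaving out the Y-linked arrays, were added after seeing the data. In knockout cells the log2 rise of Stat5a was 0.77 to 0.97 when 1 array was left out, past the threshold in 12 of 12 cases (adjusted p 0.002 to 0.0257), and 0.60 to 0.89 under the other settings, where only the fit without the low small RNA arrays lost the call (0.60, adjusted p = 0.101, with 2 residual degrees of freedom), leaving 0 of the 9 genes past the threshold. The count was 2, with Tyk2 lower, with 12 arrays as 12 samples, with the replicate block over 12 arrays (Tyk2 adjusted p = 0.0421) and among genes above the median mean signal (0.0348). In wildtype cells the rise of Stat5a was 0.86 to 1.01 when 1 array was left out, past the threshold in 6 of 12 cases (adjusted p 0.0168 to 0.115), so the count ran from 0 to 1. It missed the threshold, with a count of 0, when arrays were shifted to 1 median (0.98, adjusted p = 0.056), with a term for the low small RNA arrays (0.74, 0.0812), with a term for the Y-linked arrays (0.95, 0.0553), with only the 2 groups compared (0.93, 0.0769) and without the low small RNA arrays (0.80, 0.207). With the replicate block over 12 arrays it was 0.93 (adjusted p = 0.00053), and with the block over 9 arrays Stat5a in knockout cells had adjusted p = 0.00241. Apart from Tyk2 in knockout cells with the block over 12 arrays, the blocks changed no call of the 9 genes. The cause of these changes was not tested. The counts of 0 in the comparisons of genotypes and responses were the same under every setting run. Of 1195 other values, for the 52 differences not past the threshold, 3 passed, all of Tyk2 in knockout cells, and 100 had the opposite sign, with 0 of these past the threshold. No gene had a further probe set to try. Over all genes, the number past the threshold was 1311 in knockout and 349 in wildtype cells, against 2021 and 1917 with 12 samples, 562 and 76 without the low small RNA arrays, and 97 against 1 between untreated genotypes with 12 samples.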
